A study of Mus musculus with 12 samples.

Results

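The hypoxia and glycolysis genes are a set of 39 named genes: the enzymes and transporters that carry glucose to lactate, the oxygen-regulated transcription factor subunits Hif1a and Epas1, and known targets of those factors. They were chosen by symbol in the array annotation, with the brightest probe set kept for a gene that had several. Of the 39 genes, 34 had a probe set that carried their symbol alone, and all 34 were among the 13153 genes tested, of 22180 with such a probe set. The other 5 are not analysed here. Aldoa, Bnip3l and Ankrd37 are carried by probe sets that also name another gene, Aldoart1, Bnip3l-ps and Lrp2bp in turn, and Gpi1 and Eno1 had no probe set in the annotation used.

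Expression was measured on 12 arrays of skin-derived precursors (SKPs), cells of the dermis kept in culture as floating spheres. The cells came from the skin of mice aged 9 months, of a strain labelled CD57/Bl6, in 4 groups of 3 independent isolates: uninjured vehicle (no wound, vehicle), wound vehicle (wounded, vehicle), wound trimebutine (wounded, trimebutine maleate, a drug for bowel motility disorders) and wound alprostadil (wounded, alprostadil, which is prostaglandin E1). By its title the study looked for drugs that improve skin repair. Every group was grown again as secondary spheres before RNA was taken, at 50000 cells per ml in medium with 40 ng/ml of FGF2, 20 ng/ml of EGF and 2% B27, so the values are those of cells expanded in culture and not of skin. The sources used here do not give the oxygen level of the cultures, the drug doses, the treatment times or the skin sites, and an effect of wounding cannot be told apart from one of skin site.

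Cells split glucose to pyruvate in glycolysis and, when oxygen is short, turn most of that pyruvate into lactate. The response to low oxygen runs through HIF, a dimer of an oxygen-sensitive alpha subunit (HIF-1alpha or HIF-2alpha) and a stable partner. Prolyl hydroxylases use oxygen to mark the alpha subunit for destruction, so that in low oxygen it builds up, enters the nucleus and switches on genes for glucose uptake, glycolysis, blood vessel growth, pH control and mitochondrial turnover. Since this control acts mainly on the protein, the level of Hif1a or Epas1 RNA says little about HIF activity. In wounds the damaged vessels leave the tissue short of oxygen, and HIF targets such as Vegfa take part in repair.

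HIF binds the short sequence ACGTG or GCGTG, so the bases before the start sites were searched for both on both strands. The window ran from 250 bases before to 50 bases after each start in RefSeq (GRCm38.p6), and 31 of the 34 genes had 1 or more windows, 45 in all. Slc2a3, Epas1 and Ndrg1 had none. ACGTG stood in a window of 22 of the 31 genes (71%), against 28.7% of the tested genes and 21.8% of all genes with a window. Either motif stood in 28 of the 31 (90.3%), against 65.7% and 46.7%. Counted by window, ACGTG stood in 55.6% of the 45, against 25% of the windows of tested genes and 19.6% of all windows. GCGTG stood in 51.1% of the 45, near the 48.8% of the windows of tested genes, with 32.4% of all windows. Many of the genes were listed because they are known HIF targets, so these shares are no independent evidence, and a match is a run of letters, not a shown binding site. ACGTG is also part of the E-box CACGTG, where it counts once on each strand. The 250 bases before the start follow for 6 genes, 5′ to 3′ on the strand of the gene, with the motif matches in capitals. Egln3, Vegfa, Car9 and Pfkp are shown because they led the comparisons, and Pgk1 and Bnip3 because they were high on the same pair of arrays. Vegfa had 2 windows, one at a start inside the gene and one at its 5′ end, and both are printed. The other 5 genes had 1 window each.
Egln3, chr12:54203875-54204124, minus strand: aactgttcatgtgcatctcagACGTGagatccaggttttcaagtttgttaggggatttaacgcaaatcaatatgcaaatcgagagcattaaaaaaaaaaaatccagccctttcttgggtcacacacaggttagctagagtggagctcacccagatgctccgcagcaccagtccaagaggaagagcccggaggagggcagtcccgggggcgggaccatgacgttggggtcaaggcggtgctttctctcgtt
Vegfa (a start inside the gene), chr17:46025164-46025413, minus strand: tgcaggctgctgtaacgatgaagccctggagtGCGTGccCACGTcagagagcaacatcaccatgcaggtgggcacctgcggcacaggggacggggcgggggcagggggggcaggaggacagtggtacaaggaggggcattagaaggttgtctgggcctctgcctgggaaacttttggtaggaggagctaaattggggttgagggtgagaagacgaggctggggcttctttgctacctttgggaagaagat
Vegfa (5′ end of the gene), chr17:46032378-46032627, minus strand: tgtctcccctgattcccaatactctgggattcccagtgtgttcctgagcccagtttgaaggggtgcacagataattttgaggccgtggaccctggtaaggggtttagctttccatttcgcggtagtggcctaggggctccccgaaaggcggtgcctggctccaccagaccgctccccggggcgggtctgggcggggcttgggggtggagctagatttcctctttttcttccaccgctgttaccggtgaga
Car9, chr4:43506776-43507025, plus strand: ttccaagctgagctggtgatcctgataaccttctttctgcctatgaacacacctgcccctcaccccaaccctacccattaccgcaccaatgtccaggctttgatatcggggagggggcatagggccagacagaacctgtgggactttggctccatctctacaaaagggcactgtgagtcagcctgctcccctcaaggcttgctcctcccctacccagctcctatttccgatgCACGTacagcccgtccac
Pfkp, chr13:6648772-6649021, minus strand: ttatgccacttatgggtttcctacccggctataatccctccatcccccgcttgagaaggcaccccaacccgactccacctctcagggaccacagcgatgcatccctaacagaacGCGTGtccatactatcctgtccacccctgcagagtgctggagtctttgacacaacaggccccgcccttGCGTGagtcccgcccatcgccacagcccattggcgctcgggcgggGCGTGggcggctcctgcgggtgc
Pgk1, chrX:106186850-106187099, plus strand: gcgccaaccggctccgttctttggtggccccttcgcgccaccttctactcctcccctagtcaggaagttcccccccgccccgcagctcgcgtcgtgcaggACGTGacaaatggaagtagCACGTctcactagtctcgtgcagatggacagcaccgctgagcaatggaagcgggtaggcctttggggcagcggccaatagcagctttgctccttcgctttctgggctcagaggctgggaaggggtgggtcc
Bnip3, chr7:138909507-138909756, minus strand: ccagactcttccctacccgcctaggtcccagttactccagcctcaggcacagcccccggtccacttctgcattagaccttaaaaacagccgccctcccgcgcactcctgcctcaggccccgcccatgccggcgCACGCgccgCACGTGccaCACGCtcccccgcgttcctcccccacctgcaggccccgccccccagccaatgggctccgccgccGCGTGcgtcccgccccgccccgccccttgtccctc
Egln3 and Car9 each held 1 ACGTG match in the printed stretch. Vegfa held 1 of each motif in the window of the start inside the gene, and neither motif in the window at its 5′ end. Pgk1 held 2 of ACGTG, and Bnip3 held 2 of ACGTG and 3 of GCGTG. Pfkp held GCGTG alone, 3 times.

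None of the 34 genes passed the threshold of 0.05 on the adjusted p in any of the 5 comparisons, or in the F test across the 4 groups, in limma with Benjamini-Hochberg adjustment over all 13153 genes. What the genes showed most plainly was a spread between isolates of 1 group. The median SD within groups was 0.30 log2 units for the 34 genes against 0.17 for all genes tested. The median distance between the highest and the lowest group mean was 0.31 against 0.23. A log2 unit is a doubling, values are log2 expression on the authors' RMA scale, and levels of different genes cannot be set against each other on it.

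Of 12 markers of dermal mesenchyme, Fn1 and Dcn were at 13.64 or more on every array, and the mean of the 12 ran from 11.63 to 12.50. The epidermal keratin Krt14 stayed at or below 6.86. Of 7 keratinocyte markers measured, Krt14 among them, 3 were bright enough to be tested. The mean of the 7 ran from 6.24 to 6.75 and was highest on wound alprostadil replicate 1. Since levels of different genes cannot be compared, these values do not give the share of each cell type. Of 9 markers of SKPs and dermal papilla, 8 were bright enough to be tested, and the mean of the 9 ran from 8.08 to 8.60. Sox2, a marker of some SKPs, was the 1 not tested and reached 5.61 at most. Array medians lay between 6.57 and 6.74, and the 3 lowest were those of the first replicate of uninjured vehicle, wound trimebutine and wound alprostadil. All 13 macrophage and leukocyte markers measured were highest on wound alprostadil replicate 1, where their mean was 10.98 against 6.36 to 7.64 on the other 11 arrays. That group's other arrays were at 6.36 and 6.78, the uninjured arrays at 6.57 to 7.02, wound vehicle at 6.90 to 7.64 and wound trimebutine at 6.36 to 7.01. In RNA from a mixture, fewer cells of a type and less RNA per cell cannot be told apart.

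**Figure D1:**
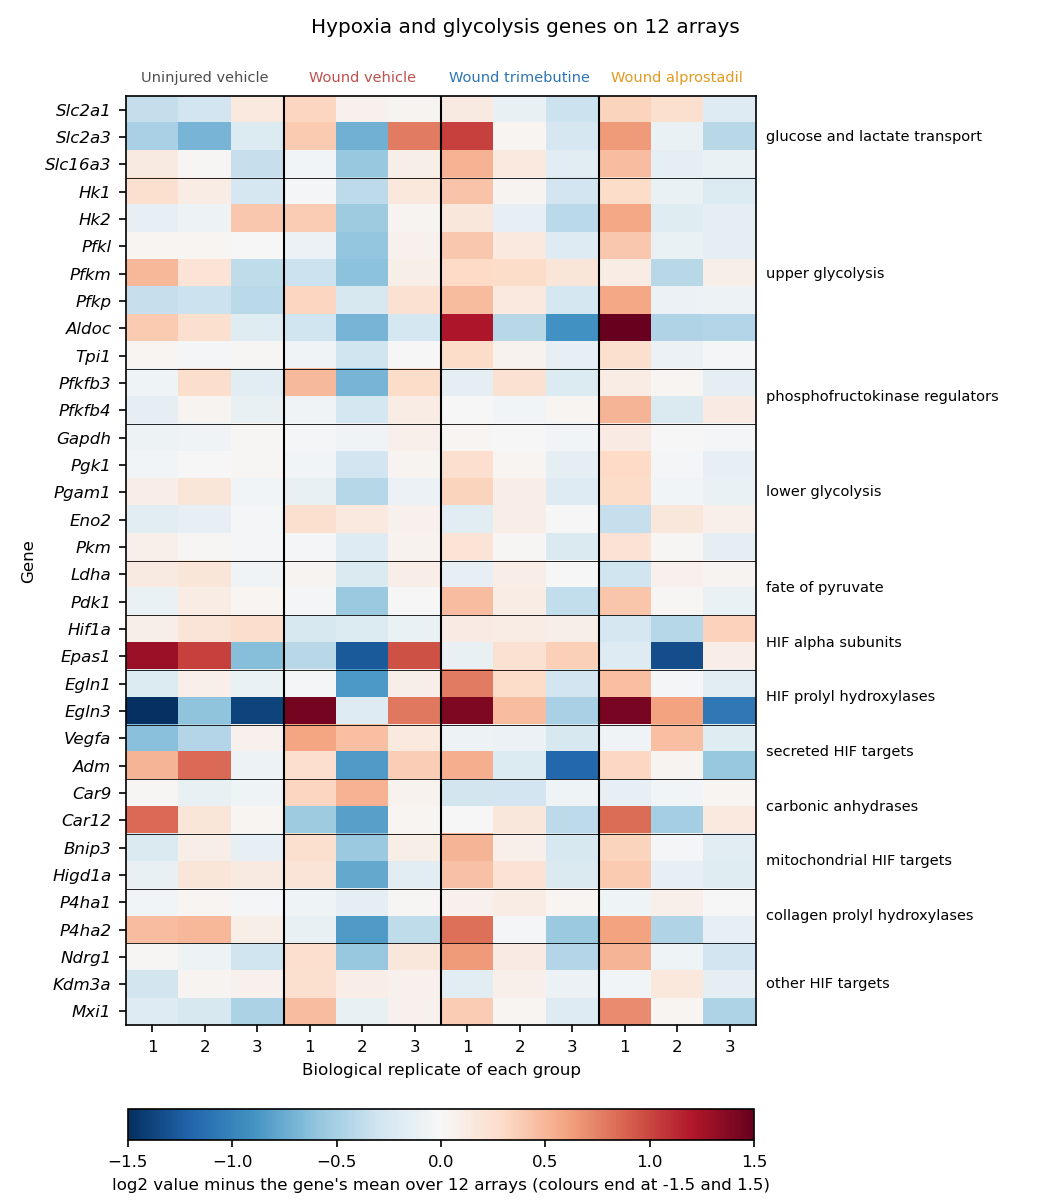
Log2 value of each of the 34 genes minus its own mean over the 12 arrays, in colour, with genes in lines by role and arrays in columns by group. Wound trimebutine replicate 1 and wound alprostadil replicate 1 are red for many genes and wound vehicle replicate 2 is blue for many, while Ldha, Eno2 and Hif1a do not show that pattern.

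Across the 12 arrays, many of the genes went up and down together. The highest array was wound trimebutine replicate 1 or wound alprostadil replicate 1 for 21 of the 34 genes (61.8%, against 28.3% of all genes tested). Those 2 arrays were the 2 highest for 15 genes (44.1%, against 6.8%). The lowest array was wound vehicle replicate 2 for 19 genes (55.9%, against 14.8%). These counts were chosen after the values were seen, and they describe these arrays with no test. On wound trimebutine replicate 1 the median gene lay 0.29 above its own mean over the arrays, and on wound alprostadil replicate 1 it lay 0.32 above, while on wound vehicle replicate 2 it stood at -0.41. On the other 9 arrays the median ran from -0.21, on wound trimebutine replicate 3, to 0.09, on wound trimebutine replicate 2. The same 3 arrays stood out with other scalings: the pair were the 2 highest for 14 genes after cyclic loess (8.14% of all genes) and for 19 with each array centred on its median (13.7%).

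Markers of other cells and of growth moved with part of this pattern. Wound alprostadil replicate 1 carried the macrophage markers described above, but wound trimebutine replicate 1 lay within the range of the 10 remaining arrays for 12 of the 13 markers. The median of 9 proliferation markers, among them Mki67 and Top2a, was 1.24 above its mean on wound alprostadil replicate 1 and 0.86 above on wound trimebutine replicate 1. It was as high, 0.87, on uninjured vehicle replicate 1, where the median of the hypoxia and glycolysis genes was -0.04. It was -1.44 on wound vehicle replicate 2, and also -1.12 on wound vehicle replicate 1 and -0.95 on wound alprostadil replicate 2, where the genes' medians were -0.01 and -0.04. The part of macrophages, of growth and of array medians in the pattern was not tested.

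**Figure D2:**
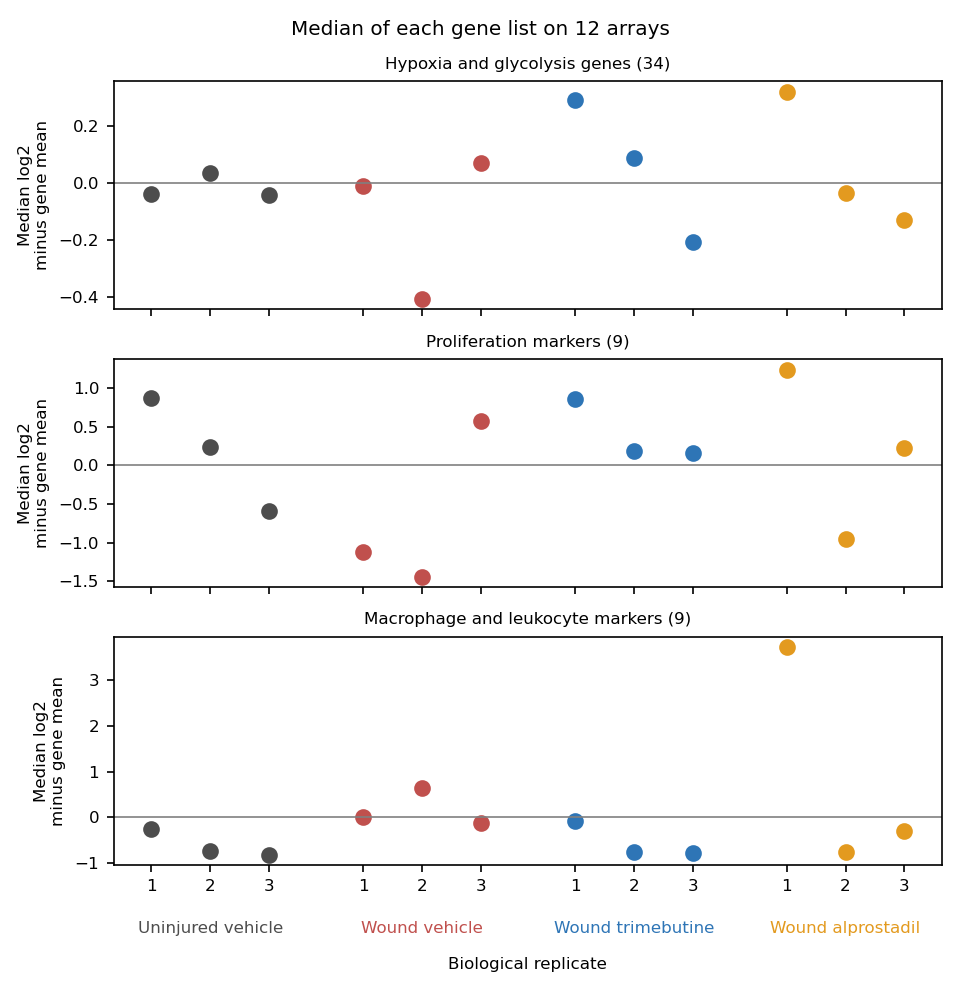
Median over a gene list of the log2 value minus each gene's mean, for each of the 12 arrays (x axis: replicate 1 to 3 of the 4 groups), in the 34 hypoxia and glycolysis genes, 9 proliferation markers and 9 tested macrophage and leukocyte markers. The genes are highest on wound alprostadil replicate 1 (0.32) and wound trimebutine replicate 1 (0.29), and macrophage markers stand out on the first of these alone (3.72).

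Glucose enters through Slc2a1 and Slc2a3 (GLUT1 and GLUT3), and lactate leaves through Slc16a3 (MCT4). The levels of Slc2a1 were 12.65, 12.73 and 13.15 in uninjured vehicle, 13.33, 13.08 and 13.04 in wound vehicle, 13.15, 12.89 and 12.68 in wound trimebutine and 13.34, 13.25 and 12.82 in wound alprostadil. The groups overlapped, and 2 of the 3 uninjured arrays were among the lowest. Wound vehicle differed from uninjured vehicle by 0.31 ± 0.18 (SE; adjusted p = 0.497). Slc2a3 ranged from 8.23 to 9.98 and was highest on wound trimebutine replicate 1, with differences of 0.61 ± 0.43 for wound vehicle against uninjured and 0.61 ± 0.35 for the 3 wound groups together. Slc16a3 ranged from 9.44 to 10.52 and was lowest on wound vehicle replicate 2.

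Hexokinases trap glucose in the cell, and Hk2 is the HIF-driven form. Its levels were 9.72, 9.77 and 10.25 in uninjured vehicle, 10.22, 9.31 and 9.89 in wound vehicle, 10.02, 9.72 and 9.44 in wound trimebutine and 10.43, 9.66 and 9.70 in wound alprostadil. They overlapped between all groups, and no group stood apart. The difference of wound vehicle from uninjured vehicle was -0.10 ± 0.28 (SE; adjusted p = 0.895). Hk1, the housekeeping form, ranged from 8.91 to 9.73.

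Phosphofructokinase sets the pace of glycolysis and has a liver (Pfkl), a muscle (Pfkm) and a platelet (Pfkp) subunit. The platelet subunit Pfkp was 9.96, 9.98 and 9.89 in uninjured vehicle, 10.63, 10.06 and 10.53 in wound vehicle, 10.77, 10.45 and 10.04 in wound trimebutine and 10.88, 10.21 and 10.22 in wound alprostadil. All 3 uninjured arrays lay below all 9 wound arrays, by a gap between 9.98 and 10.04, and Pfkp was the only one of the 34 genes for which this was so (2.94%, against 2.56% of all genes tested). The mean of the 3 wound groups was 1.39-fold higher, a log2 difference of 0.48 ± 0.19 (SE; adjusted p = 0.399), and wound vehicle alone differed by 0.46 ± 0.23 (SE; adjusted p = 0.422).

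The muscle subunit Pfkm was 9.44, 9.15 and 8.56 in uninjured vehicle, 8.62, 8.34 and 9.04 in wound vehicle, 9.24, 9.22 and 9.13 in wound trimebutine and 9.06, 8.54 and 9.04 in wound alprostadil. The 3 trimebutine arrays lay above those of wound vehicle and above those of wound alprostadil, but within the spread of uninjured vehicle. Trimebutine differed from wound vehicle by 0.53 ± 0.24 (SE; adjusted p = 0.53) and from alprostadil by 0.32 ± 0.24 (SE; adjusted p = 0.754). Pfkl ranged from 10.20 to 11.18, highest on the first trimebutine and alprostadil replicates.

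Among the enzymes that follow, Aldoc, the brain form of aldolase, had the widest swing of the glycolytic enzymes and is named here after its values were seen. It was at 11.20 on wound alprostadil replicate 1 and 10.61 on wound trimebutine replicate 1, and at most 9.79 elsewhere. Its wound vehicle arrays lay below the uninjured ones, with a difference of -0.58 ± 0.63 (SE; adjusted p = 0.713). Tpi1, triosephosphate isomerase, ranged only from 12.25 to 12.82. The regulators Pfkfb3 and Pfkfb4, which set the amount of the activator of phosphofructokinase, differed between wound vehicle and uninjured vehicle by 0.01 ± 0.27 and 0.00 ± 0.16.

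The lower steps of the pathway yield ATP and pyruvate. Pgam1, phosphoglycerate mutase, was 11.96, 12.03 and 11.82 in uninjured vehicle, 11.74, 11.43 and 11.77 in wound vehicle, 12.19, 11.95 and 11.66 in wound trimebutine and 12.13, 11.82 and 11.75 in wound alprostadil. Wound vehicle lay below uninjured vehicle on every array, while the drug groups overlapped with both. The difference was -0.29 ± 0.16 (SE; adjusted p = 0.46), and alprostadil differed from wound vehicle by 0.26 ± 0.16 (SE; adjusted p = 0.998). A second, dimmer probe set of Pgam1 gave -0.39 and 0.58, and there the wound vehicle and uninjured arrays overlapped. Eno2, the neuronal enolase, lay above the uninjured arrays on all 3 wound vehicle arrays, by 0.25 ± 0.13 (SE; adjusted p = 0.441). Pgk1 ranged from 12.70 to 13.29 and Pkm from 12.72 to 13.15, each highest on the first replicates of both drugs. Gapdh moved little, from 13.31 to 13.51. Glycolytic enzymes have many processed pseudogenes, so probe sets such as that of Gapdh may read more than 1 transcript.

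Ldha turns pyruvate into lactate and is a classical HIF target. Its levels were 9.59, 9.63 and 9.40 in uninjured vehicle, 9.50, 9.24 and 9.56 in wound vehicle, 9.33, 9.56 and 9.46 in wound trimebutine and 9.15, 9.52 and 9.49 in wound alprostadil. The groups overlapped, and the lowest value was on wound alprostadil replicate 1, where 26 of the 34 genes lay above their own mean. Wound vehicle differed from uninjured vehicle by -0.11 ± 0.13 (SE; adjusted p = 0.731).

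Pdk1 keeps pyruvate out of mitochondria by switching off pyruvate dehydrogenase. Its levels were 8.87, 9.08 and 8.99 in uninjured vehicle, 8.94, 8.41 and 8.97 in wound vehicle, 9.42, 9.07 and 8.60 in wound trimebutine and 9.37, 8.98 and 8.86 in wound alprostadil. They overlapped between the groups, with wound vehicle replicate 2 lowest and the first drug replicates highest. The differences were -0.20 ± 0.22 (SE; adjusted p = 0.713) for wound vehicle against uninjured, 0.26 ± 0.22 for trimebutine and 0.30 ± 0.22 for alprostadil against wound vehicle.

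Of the HIF alpha subunits, Hif1a was 12.30, 12.41 and 12.47 in uninjured vehicle, 11.98, 12.01 and 12.11 in wound vehicle, 12.34, 12.32 and 12.31 in wound trimebutine and 11.96, 11.79 and 12.56 in wound alprostadil. The wound vehicle arrays lay below all uninjured and all trimebutine arrays, while the alprostadil arrays spread from below to above every other group. Wound vehicle differed from uninjured vehicle by -0.36 ± 0.16 (SE; adjusted p = 0.383) and trimebutine from wound vehicle by 0.29 ± 0.16 (SE; adjusted p = 0.556). A second, dimmer probe set of Hif1a gave only -0.07 and 0.07 for the same 2 comparisons, with overlap of the arrays in both. Of 12 markers of dermal mesenchyme, 11 were below 0 in wound vehicle against uninjured vehicle (median -0.38) and 11 above 0 in trimebutine against wound vehicle (median 0.23), and none passed. In alprostadil against wound vehicle 9 were above 0 (median 0.03). Their mean level ran from 12.27 to 12.50 on the uninjured arrays, 11.63 to 12.35 in wound vehicle, 12.35 to 12.39 in trimebutine and 11.77 to 12.38 in alprostadil. Their part in the values of Hif1a and the other genes was not tested. Epas1, which encodes HIF-2alpha, was 10.58, 10.32 and 8.66 in uninjured vehicle, 8.87, 8.03 and 10.25 in wound vehicle, 9.18, 9.51 and 9.64 in wound trimebutine and 9.09, 7.96 and 9.39 in wound alprostadil. Its arrays differed by more than 1 log2 unit within every group but trimebutine, and the groups overlapped. Its difference for wound vehicle against uninjured vehicle was -0.80 ± 0.62 (SE; adjusted p = 0.601).

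Egln1 (PHD2) and Egln3 (PHD3) are prolyl hydroxylases that mark HIF alpha, and both are HIF targets themselves. Egln3 was 7.33, 9.09 and 8.31 in uninjured vehicle, 11.14, 9.50 and 10.49 in wound vehicle, 11.09, 10.15 and 9.20 in wound trimebutine and 11.12, 10.30 and 8.62 in wound alprostadil. It had the widest range of the 34 genes. All wound vehicle and trimebutine arrays lay above the uninjured arrays, as did 2 of the 3 alprostadil arrays, replicate 3 being the exception. The mean of wound vehicle was 4.39-fold that of uninjured vehicle, a log2 difference of 2.13 ± 0.72 (SE; adjusted p = 0.282), and the 3 wound groups together were 3.83-fold higher, 1.94 ± 0.59 (SE; adjusted p = 0.252). Without the 3 arrays of lowest median the second difference was 1.14 (adjusted p = 0.672). Egln1 ranged from 9.73 to 11.38, highest on the first drug replicates, and differed by -0.19 ± 0.30 between wound vehicle and uninjured vehicle.

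**Figure D3:**
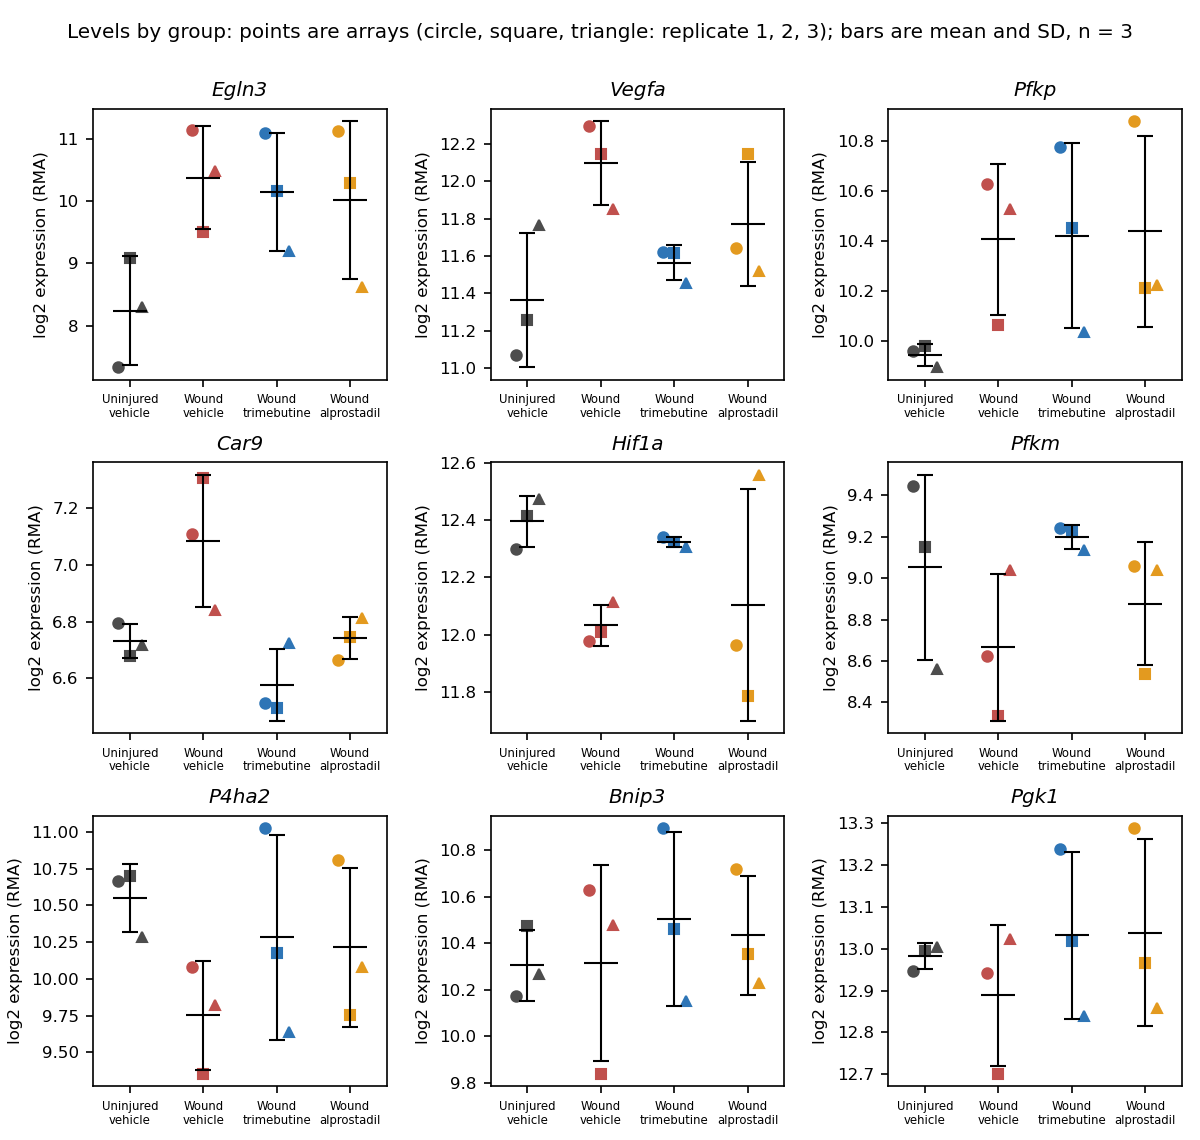
Log2 expression of 9 of the genes on the 12 arrays, by group: points are arrays (circle, square and triangle for replicates 1, 2 and 3) and bars the mean with its SD, n = 3; the y axes do not start at 0. Pfkp is lowest on the 3 uninjured arrays (9.89 to 9.98), and Vegfa and Egln3 are higher in wound vehicle than in uninjured vehicle. Bnip3 and P4ha2 spread widely within wound groups.

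Vegfa encodes the growth factor that draws in blood vessels. Its levels were 11.07, 11.25 and 11.77 in uninjured vehicle, 12.29, 12.15 and 11.85 in wound vehicle, 11.62, 11.62 and 11.46 in wound trimebutine and 11.64, 12.15 and 11.52 in wound alprostadil. All 3 wound vehicle arrays lay above the uninjured arrays and above the trimebutine arrays, but not above alprostadil, whose replicate 2 was as high as wound vehicle replicate 2. The mean was 12.10 ± 0.23 (SD, n = 3) in wound vehicle and 11.36 ± 0.36 in uninjured vehicle, a 1.66-fold difference of 0.73 ± 0.21 (SE; adjusted p = 0.209), which was the smallest adjusted p of the 34 genes in that comparison. Trimebutine differed from wound vehicle by -0.53 ± 0.21 (SE; adjusted p = 0.528) and alprostadil by -0.33 ± 0.21 (SE; adjusted p = 0.998). Adm, adrenomedullin, a peptide that widens vessels, ranged from 7.91 to 9.94 with overlap of all groups.

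Car9 and Car12 are carbonic anhydrases at the cell surface that help to export acid, and Car9 is among the most specific HIF-1 targets. Both were dim, close to the array medians. Car9 was 6.80, 6.68 and 6.72 in uninjured vehicle, 7.11, 7.31 and 6.84 in wound vehicle, 6.51, 6.49 and 6.72 in wound trimebutine and 6.67, 6.75 and 6.81 in wound alprostadil. Wound vehicle was above each of the other 3 groups on every array, though wound vehicle replicate 3 (6.84) lay just above wound alprostadil replicate 3 (6.81). The differences were 0.36 ± 0.12 (SE; adjusted p = 0.27) against uninjured vehicle, -0.51 ± 0.12 (SE; adjusted p = 0.528) for trimebutine and -0.34 ± 0.12 (SE; adjusted p = 0.998) for alprostadil against wound vehicle. A second, dimmer probe set of Car9 gave 0.28, 0.23 and 0.20 for the same 3 comparisons, so the direction of both drug differences depends on the probe set. It was highest on wound trimebutine replicate 1 (7.48) and wound alprostadil replicate 1 (7.26), the arrays where many of the other genes were highest.

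Car12 was 7.80, 7.14 and 6.98 in uninjured vehicle, 6.42, 6.15 and 6.98 in wound vehicle, 6.96, 7.13 and 6.56 in wound trimebutine and 7.80, 6.44 and 7.11 in wound alprostadil. Wound vehicle replicates 1 and 2 lay well below the uninjured arrays, and replicate 3 was level with the lowest of them to 2 decimals (6.98). The drug groups spread over both. Its difference was -0.79 ± 0.35 (SE; adjusted p = 0.377) for wound vehicle against uninjured vehicle and 0.60 ± 0.35 (SE; adjusted p = 0.998) for alprostadil against wound vehicle.

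Bnip3 starts the removal of mitochondria in low oxygen. Its levels were 10.17, 10.47 and 10.27 in uninjured vehicle, 10.63, 9.84 and 10.48 in wound vehicle, 10.90, 10.46 and 10.15 in wound trimebutine and 10.72, 10.35 and 10.23 in wound alprostadil. The groups overlapped throughout, with wound vehicle replicate 2 lowest and the first drug replicates highest, and wound vehicle differed from uninjured vehicle by 0.01 ± 0.24 (SE; adjusted p = 0.989). Higd1a, a mitochondrial protein induced by hypoxia, ranged from 7.70 to 8.91, lowest on the same wound vehicle array.

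P4ha1 and P4ha2 hydroxylate prolines of collagen, a step that needs oxygen and that steadies the triple helix. P4ha1 was 12.45, 12.52 and 12.48 in uninjured vehicle, 12.43, 12.36 and 12.51 in wound vehicle, 12.56, 12.61 and 12.52 in wound trimebutine and 12.43, 12.57 and 12.49 in wound alprostadil. The trimebutine arrays lay just above those of wound vehicle, by 0.13 ± 0.07 (SE; adjusted p = 0.555). P4ha2, named after its values were seen, was 10.67, 10.70 and 10.28 in uninjured vehicle, 10.08, 9.35 and 9.82 in wound vehicle, 11.03, 10.18 and 9.64 in wound trimebutine and 10.81, 9.75 and 10.08 in wound alprostadil. The wound vehicle arrays lay below the uninjured arrays, by -0.80 ± 0.36 (SE; adjusted p = 0.385), and the drug groups spread across both.

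Ndrg1, a gene induced by stress and low oxygen, ranged from 11.47 to 12.68. Kdm3a, a histone demethylase that HIF induces, ranged from 10.09 to 10.61. Mxi1, an antagonist of Myc, was higher on all 3 wound vehicle arrays than on the uninjured ones, by 0.45 ± 0.27 (SE; adjusted p = 0.508). A second, dimmer probe set of Mxi1 gave 0.20, and there the arrays overlapped.

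Set against uninjured vehicle, wound vehicle showed no member past the threshold, while 6 of all genes tested passed (0.0456%). The arrays of the 2 groups did not overlap for 11 of the 34 genes (32.4%, against 18% of all genes tested). In 6 of these wound vehicle was higher, namely Pfkp, Eno2, Egln3, Vegfa, Car9 and Mxi1 (8.01% of all genes were higher without overlap), and in 5 it was lower, namely Aldoc, Pgam1, Hif1a, Car12 and P4ha2 (10% of all genes), with Car12 apart by less than the second decimal shows. An unadjusted p under 0.05 was found for 5 genes (14.7%, against 13%). The differences went both ways, with 14 of 34 above 0 and a median of -0.10, where 51.4% of all genes were above 0 with a median of 0.01. Without wound vehicle replicate 2 the median of the 34 was 0.06, so its sign rests on that array. In a fit that weighted the arrays by their scatter, 14 of the 34 passed (41.2%), as did 38% of all genes: Slc2a1, Slc2a3, Pfkp, Eno2, Egln3, Vegfa, Car9 and Mxi1 among the higher, and Pfkm, Pgam1, Hif1a, Epas1, Car12 and P4ha2 among the lower. The weights of replicates 1, 2 and 3 were 0.68, 5.99 and 0.49 in uninjured vehicle and 2.70, 0.98 and 0.32 in wound vehicle. Those calls therefore rest mainly on 1 array of each group.

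Between trimebutine and wound vehicle 0 of the 34 genes passed, as did 0 of all genes in limma. The arrays did not overlap for 5 genes (14.7%, against 15.8% of all genes), with Pfkm, Hif1a and P4ha1 higher (9.21% of all genes were) and Vegfa and Car9 lower (6.63%) under trimebutine. An unadjusted p under 0.05 was found for 3 of the 34 (8.82%, against 9.43%). The differences were above 0 for 23 of 34 genes with a median of 0.14, against 50% above 0 and a median of 0.00 for all genes. The median was -0.03 without wound vehicle replicate 2 and -0.01 without the first replicate of both drugs. With array weights 6 of the 34 passed (17.6%, against 30.7% of all genes), the 5 without overlap and Slc2a1.

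Between alprostadil and wound vehicle 0 of the 34 genes passed, and 0 of all genes. Car9 alone had arrays that did not overlap (2.94%, against 5.9%), and it alone had an unadjusted p under 0.05 (2.94%, against 2.75%). In limma on these 2 groups alone with a block for replicate number, 1 member was under 0.05, against 3.71% of all genes. That member was P4ha2 (0.46 ± 0.13, SE; unadjusted p = 0.0154, adjusted p = 0.92), while Car9 had an unadjusted p of 0.0552. The differences were above 0 for 23 of 34 genes (67.6%, against 59.4% of all genes), with a median of 0.08 against 0.03. Without wound vehicle replicate 2 it was -0.02, as it was without the first replicate of both drugs, of which the alprostadil one carried the macrophage markers. Both drug comparisons use the same wound vehicle arrays, so a high or low wound vehicle array enters both alike.

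Trimebutine and alprostadil were also set against each other, a difference that leaves the wound vehicle arrays out. Those arrays still enter the model's estimate of the spread, and so the SE and p. No gene of the 34 passed, and none had an unadjusted p under 0.05 (4.42% of all genes did). In limma on these 2 groups alone with a block for replicate number, 1 of the 34 was under 0.05, against 13.3% of all genes. It was Slc2a1 (-0.23 ± 0.08, SE; unadjusted p = 0.0497, adjusted p = 0.376). Pfkm was the only gene of the 34 whose arrays did not overlap (2.94%, against 11.2%). The differences were above 0 for 18 of 34 genes, against 46.2% of all genes, and their median was 0.02. Car9 had the smallest adjusted p, 0.752, with a difference of -0.16 ± 0.12. Hif1a differed by 0.22 ± 0.16 (SE; adjusted p = 0.754).

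For the 3 wound groups together against uninjured vehicle 0 of the 34 passed, against 32 of all genes (0.243%). An unadjusted p under 0.05 was found for Egln3, Vegfa and Pfkp, all higher in the wound groups (8.82%, against 10.3% of all genes). Vegfa differed by 0.45 ± 0.17 (SE; adjusted p = 0.376). The median of the 34 was 0.00, with 17 above 0 (50%, against 53.3%). With array weights 10 of the 34 passed (29.4%, against 31.7% of all genes), among them Egln3, Vegfa and Pfkp. In the F test across the 4 groups Car9 had the smallest adjusted p, 0.553, and 2 of all genes passed (0.0152%). An unadjusted p under 0.05 was found for Egln3, Vegfa and Car9 (8.82%, against 7.89%), and with array weights 8 of the 34 passed (23.5%, against 42.1%).

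**Figure D4:**
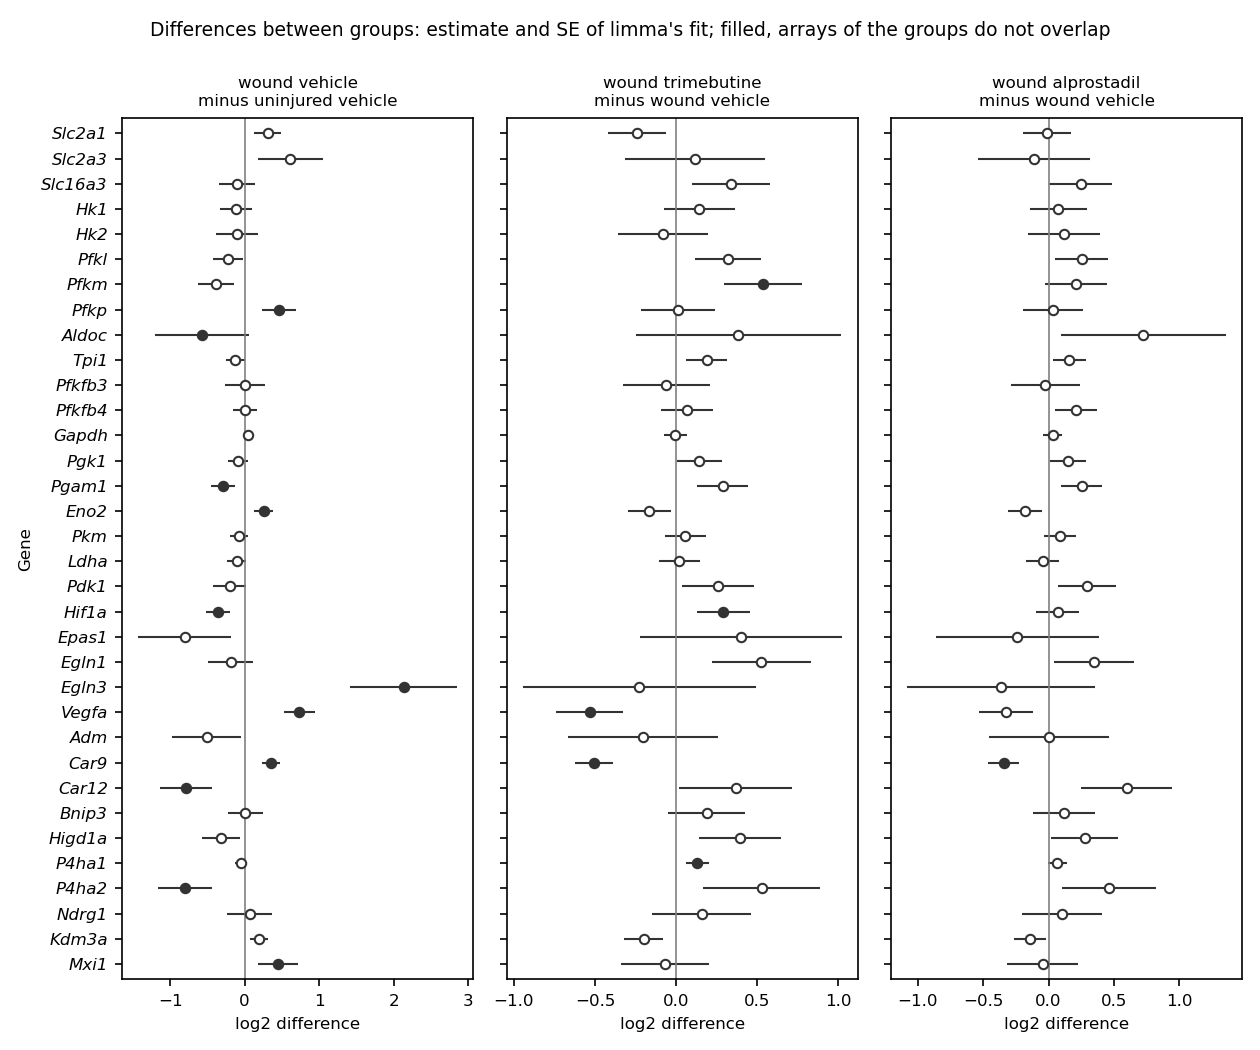
Log2 difference between groups (x axis, with the SE of limma's fit) for each of the 34 genes in 3 comparisons; filled points mark genes whose 3 arrays in one group do not overlap with the 3 of the other. Egln3 has the largest difference of wound vehicle from uninjured vehicle (2.13) with the longest error bar (SE 0.72), and both drug comparisons share the wound vehicle arrays.

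The rest of the pathway was read from lists of genes that are not among the 39. No gene of these lists passed in any of the 5 comparisons. In wound vehicle against uninjured vehicle an unadjusted p under 0.05 was found for 3 of 17 other glycolysis and glycogen genes (17.6%), 6 of 27 other HIF targets (22.2%) and 0 of 14 other HIF pathway genes, against 13% of all genes tested. It was found for 5 of 12 genes of pyruvate dehydrogenase and the mitochondrial pyruvate carrier (41.7%), 1 of 19 genes of the tricarboxylic acid cycle (5.26%) and 1 of 6 of the pentose phosphate pathway (16.7%). The pyruvate dehydrogenase list held the gene nearest to the threshold: Pdp1, the phosphatase that switches the enzyme on, differed by 0.49 ± 0.09 (SE; adjusted p = 0.059) between the 3 wound groups and uninjured vehicle. In wound vehicle alone Pdp1 differed by 0.48 ± 0.11, while Pdk4, a kinase that switches the enzyme off, differed by -0.99 ± 0.27 (adjusted p = 0.204), and Pcx, pyruvate carboxylase, by -1.15 ± 0.30. Nrn1, a neuritin also listed among HIF targets, differed by -2.84 ± 0.51 (adjusted p = 0.109) in wound vehicle and was 1.82 ± 0.51 above wound vehicle under trimebutine (adjusted p = 0.528). Under alprostadil it was 1.27 ± 0.51 above the same wound vehicle arrays (adjusted p = 0.998). Of 6 endothelial markers 2 were bright enough to test, Cdh5 and Tek, and Pecam1 was at 6.14 or below on every array. Cdh5 reached 9.98 on 2 wound vehicle arrays and 7.52 at most on the uninjured arrays. The median of Cdh5 and Tek, each minus its own mean, was 0.81, 0.85 and -0.33 on wound vehicle replicates 1, 2 and 3. It ran from -1.01 to -0.71 on the uninjured arrays, from -0.24 to 0.55 in trimebutine and from -0.11 to 0.39 in alprostadil. The part of these markers in the values of Vegfa was not tested.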

How the data were processed

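RNA of 12 SKP cultures was hybridised to Affymetrix Mouse Gene 2.0 ST arrays from 400 ng of total RNA, per the labels' protocols. Per the submitters' processing notes, the authors computed the deposited log2 values with RMA in oligo, an R package, and the sources used here give no versions. RMA equalises the arrays' distributions, so a shift of all genes alike would not be seen. Of 41345 probe sets, 23521 carry 1 gene symbol, 1814 several and 16010 none in the platform annotation. Those with 1 symbol were used, the brightest for each of 22180 genes. The 13153 genes that exceeded the median of the array on 3 or more arrays were tested.

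The test was a linear model of the 4 groups (limma 3.58.1 in R 4.3.3), with no covariate and 8 residual degrees of freedom. P-values are two-sided, adjusted by Benjamini-Hochberg over all genes tested, with a threshold of 0.05. Levels are log2 values, differences have the model's standard error (SE), and n = 3 arrays per group limits the precision. The labels call the samples biological replicates, and no array was a copy of another. The scripts were tested on simulated arrays. The genes and lists were chosen with earlier results of these data known. Values on every array are given for the 3 genes of smallest p in each comparison, for 10 fixed genes (Hif1a, Epas1, Slc2a1, Hk2, Ldha, Pdk1, Vegfa, Car9, Bnip3 and Egln3) and for genes whose arrays do not overlap where a comparison has at most 8; other genes of the set are given by range, difference or count. Of the other pathway lists, the genes named are among the 3 of smallest p in a comparison. Markers of cell types and of growth were named to describe the cells and not by their p, and Sox2 was too dim to be tested. The endothelial markers were chosen after their values were seen. By the correlation of same-numbered arrays after the group means were removed, the replicate numbers paired alprostadil with wound vehicle (0.19, 0.43 and 0.62) and with trimebutine (0.57, 0.22 and 0.42), while other groups had 1 or more pairs below 0.1. The labels give the numbers no further meaning. Motifs were searched in RefSeq promoter windows. Alternatives were a replicate block, other filters, the mean of probe sets, 2 scalings, trended and robust variances, array weights, a fit to the compared groups alone, a threshold of 0.1 and leaving out each array, and 2 further sets of arrays left out and a block within the paired groups alone were chosen after seeing the data. Plots were made in matplotlib 3.10.9 (Python 3.11.15).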

Additional observations from a re-analysis of the deposited data

How the results depend on the processing

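Of 25 results on single genes of the set, 0 changed direction under the settings tried, 23 to 25 for each result. No setting put a second probe set in place of the brightest. For Car9 the second probe set gave both drug differences the opposite direction (0.23 and 0.20, against -0.51 and -0.34). Array weights were the only setting under which any of the genes passed. With them, 14 of the 34 passed for wound vehicle against uninjured vehicle (41.2%, with 4997 of all genes, 38%), 6 for trimebutine against wound vehicle (with 4034 of all genes), 10 for the 3 wound groups against uninjured vehicle (with 4175) and 8 in the F test (with 5537), and 0 for either other comparison. Those weights ran from 0.30 on wound alprostadil replicate 1 to 5.99 on uninjured vehicle replicate 2. Most of the weight of wound vehicle lay on replicate 1 (2.70) and of wound trimebutine on replicate 2 (4.69). The counts with array weights thus rest mainly on 1 array in each of these 3 groups. For wound vehicle against uninjured vehicle, 6 of all genes passed; the count was 2 with the replicate block, 1 with arrays centred on their medians, 0 with the filter on the mean or with only the groups compared, 21 at an adjusted p threshold of 0.1, and 0 without the 3 arrays of lowest median or without the first replicate of both drugs. Leaving out each array gave 0 to 30. For the 3 wound groups against uninjured vehicle, 32 of all genes passed; the count was 76 at a threshold of 0.1, 0 without the 3 arrays of lowest median, 76 without the first replicate of both drugs, and 0 to 76 leaving out each array. Leaving out each array gave 0 to 11 for trimebutine against wound vehicle, and 0 to 1 for alprostadil against wound vehicle and for the drugs against each other. In the F test 2 of all genes passed, 0 with the replicate block, the filter on the mean, without the 3 arrays of lowest median or without the first replicate of both drugs, 1 after cyclic loess or median centring, and 0 to 6 leaving out each array. The cause of these changes was not tested. With the replicate block over all groups 0 of the 34 genes passed. In a fit to the paired groups alone with the replicate block, 0 of the 34 and 0 of all genes passed for alprostadil against wound vehicle (smallest adjusted p of the 34, 0.92) and for trimebutine against alprostadil (0.376). The pairing changed no call on the adjusted p there, but it changed which of the 34 had an unadjusted p under 0.05. Over all groups 5 of 12 arrays matched their own number best. Medians of the 34 genes moved by less than the SD between arrays of a group (0.21). Centring on array medians shifted the median of all genes by at most 0.06. Car9 and Car12 lay close to the array medians, where differences are compressed.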
